A study of Mus musculus with 12 samples.

Results

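The genes described here are 10 genes linked to the glands of the mouse uterus: Prss28, Prss29, Foxa2, Lif, Dmbt1, Agr2, Wfdc3, Cxcl15, Gulo and Calb1. They were matched by symbol, and all 10 were found among the 22294 genes of the deposited expression table. They were picked with earlier results of these data in view, from their levels over the 4 groups, so these levels and the differences between groups are a description and carry no test. Uterine glands are epithelial tubes in the endometrium whose secretions enter the uterine lumen. In mice the transcription factor FOXA2 is needed for gland development and for gland output of the cytokine LIF, without which embryos do not implant. The glands also release serine proteases, protease inhibitors, mucosal defence proteins and chemokines, and much of this output follows oestrogen and progesterone. The label "secretory" holds for only part of the group: Foxa2 encodes a nuclear factor, Gulo a membrane enzyme of the endoplasmic reticulum, Calb1 a calcium-binding protein of the cytosol, and Agr2 a protein that works mainly inside the endoplasmic reticulum. Lif is also made by other cell types.

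Messenger RNA was sequenced from mouse endometrial cells bound by magnetic beads against F4/80, the surface protein used here to take macrophages, after trypsin and collagenase digestion of the tissue. There were 12 libraries in 4 groups of 3. The groups were IUA (intrauterine adhesion) mice treated with primed mesenchymal stromal cells (primed MSC), IUA mice treated with control cells (control MSC), IUA mice without cells, and Sham mice, which had a sham operation. The cells were human umbilical cord MSC (hUC-MSC), and the primed ones had been exposed to inflammatory cytokines. The IUA libraries alone carry the name Matrigel, a basement membrane gel, and its role, the cytokines, the mouse strain, the age and the time of sampling are not given in the sources used here. If only the IUA mice without cells received the gel, it cannot be told apart from the absence of cells in comparisons with the MSC groups. In IUA against Sham it could then not be told apart from the adhesion model. Nothing given says that the 3 libraries of a group came from separate mice, so the p-values below measure only the spread between these samples.

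The authors gave each gene an FPKM, a fragment count scaled to transcript length and library size, and the sequencing depth is unknown. Differences are on the log2(FPKM + 1) scale with the standard error (SE) from limma, a linear model fitted to all 12 libraries. The 11604 genes tested are those that reached 1 FPKM in 3 or more libraries. A gene is said to pass where its Benjamini-Hochberg adjusted p over all 11604 genes was under 0.05. Of the 10 genes, 9 met the filter and Foxa2 did not. In a sorted sample of macrophages most of these are genes of another cell type, while Lif is made by several. In bulk RNA fewer cells of a type and less RNA per cell cannot be told apart. General epithelial genes were present in every library: none of 20 was at 0, and their summed level was 1620 to 2507 FPKM in primed MSC, 1576 to 3997 in control MSC, 1653 to 5504 in IUA and 8254 to 14420 in Sham libraries. The 12 macrophage genes were also all above 0, with sums of 33781 to 35961 FPKM in primed MSC, 34216 to 37194 in control MSC, 31808 to 34768 in IUA and 12088 to 14713 in Sham libraries.

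Prss28 and Prss29 encode the implantation serine proteases ISP1 and ISP2, tryptase-like enzymes that mouse uterine glands secrete around implantation. They are neighbours: on mm10, Prss28 lies at chr17:25308646-25311876 and Prss29 at chr17:25318654-25322684, both on the plus strand, 6777 bases apart with 0 annotated genes between them. Because their levels lay close together over the libraries, the 250 bases before each start (RefSeq, GRCm38.p6, plus strand) are shown, with capitals on the exact runs of 12 or more bases that both hold.
Prss28 chr17:25308396-25308645: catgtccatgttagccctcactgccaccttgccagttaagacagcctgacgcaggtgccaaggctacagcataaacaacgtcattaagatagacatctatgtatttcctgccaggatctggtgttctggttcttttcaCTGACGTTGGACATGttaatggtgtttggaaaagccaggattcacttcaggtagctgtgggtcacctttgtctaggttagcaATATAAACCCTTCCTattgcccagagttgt
Prss29 chr17:25318404-25318653: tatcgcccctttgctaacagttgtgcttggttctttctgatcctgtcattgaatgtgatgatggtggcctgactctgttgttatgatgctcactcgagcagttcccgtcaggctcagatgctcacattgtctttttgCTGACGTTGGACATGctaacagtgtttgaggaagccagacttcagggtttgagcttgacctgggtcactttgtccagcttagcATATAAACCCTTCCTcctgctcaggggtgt
The stretches share 2 runs of 15 bases each. Over the 229 bases that align, 75.6% are identical. The run nearest the start contains the letters TATAAA, 29 to 24 bases before the start in both genes, a match that 12.4% of 32851 mouse promoters of this length have on either strand.

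A promoter was matched in the RefSeq table for 7 of the 10 genes, all but Dmbt1, Gulo and Calb1. Foxa2 had several, so there were 9 stretches in all. They were searched on both strands for 3 forms of the FOXA binding core. The form TGTTTAC occurs in 3.17% of all promoters, the form TGTTTGC in 4.30% and the form TATTTAC in 2.73%, and 9.73% hold at least 1 of them. Among the 7 genes Cxcl15 alone held a form, shown in capitals at 238 to 232 bases before the start.
Cxcl15 chr5:90794284-90794533: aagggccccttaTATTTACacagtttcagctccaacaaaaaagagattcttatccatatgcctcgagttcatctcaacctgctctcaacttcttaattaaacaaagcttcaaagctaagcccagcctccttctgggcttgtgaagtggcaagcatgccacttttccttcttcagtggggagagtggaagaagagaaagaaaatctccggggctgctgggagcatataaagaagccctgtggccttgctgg
Cxcl15 also held TATAAA, at 27 to 22 bases before its start. Of the Foxa2 stretches, the one at chr2:148045465-148045714 held it on the minus strand, at 208 to 203 bases before that start. The STAT site TTCNNNGAA, which 7.02% of all promoters hold, was not among the letters of these windows in the 7 genes. A match is a string of letters and not a shown binding site.

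**Figure D1:**
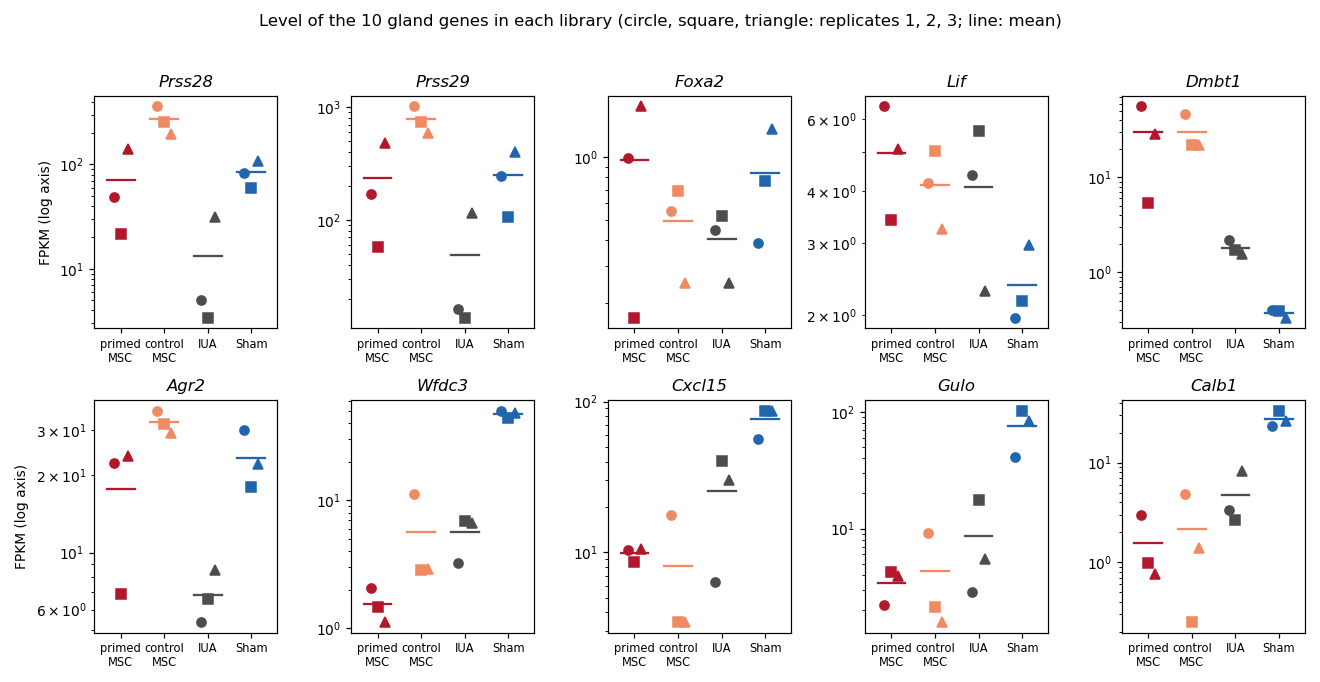
FPKM of the 10 gland genes in each of the 12 libraries on log axes that differ between panels, with groups from left to right primed MSC, control MSC, IUA and Sham; symbols mark replicates and lines the mean of 3. Prss28, Prss29 and Agr2 are lowest on average in IUA and highest in control MSC libraries, Dmbt1 is near the floor in Sham, and Wfdc3, Cxcl15, Gulo and Calb1 are highest in Sham.

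The 10 genes followed different courses over the groups. Prss28, Prss29 and Agr2 were low in IUA and, on average, above Sham in control MSC libraries. Dmbt1 was near 0 in Sham and high in both MSC groups. Wfdc3, Cxcl15, Gulo and Calb1 were high in Sham and low in all 3 IUA groups. Lif and Foxa2 were low throughout. Separation of groups is stated below for single genes, and it was common over all tested genes. The IUA libraries lay wholly below Sham for 47.7% of them and wholly above for 11.9%. Against Sham the shares were 50.6% and 17.5% in primed MSC, and 49.6% and 17% in control MSC. Against IUA, 17.4% lay wholly below and 20.1% wholly above in primed MSC, and 7.33% and 14.8% in control MSC. Nothing is read from separation alone.

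Prss28 was at 48.7, 21.5 and 142 FPKM in primed MSC libraries, 359.7, 255 and 196 in control MSC, 5.08, 3.39 and 31.6 in IUA, and 83.0, 59.3 and 109 in Sham libraries. Every control MSC library was above every library of the other groups, every IUA library was below every Sham library, and primed MSC overlapped both IUA and Sham. On the log2 scale Prss28 differed by 2.51 ± 0.71 (primed MSC minus IUA), 4.78 ± 0.71 (control MSC minus IUA) and -3.11 ± 0.71 (IUA minus Sham). The ratio of group means was 20.2 for control MSC over IUA.

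Prss29 was at 170.4, 57.5 and 486 FPKM in primed MSC libraries, 1018, 745 and 588 in control MSC, 16.1, 13.5 and 116 in IUA, and 247, 106 and 397 in Sham libraries. Control MSC again stood above every other library, while IUA replicate 3 reached into the Sham range. The differences were 2.47 ± 0.83 (primed MSC minus IUA), 4.64 ± 0.83 (control MSC minus IUA) and -2.84 ± 0.83 (IUA minus Sham). By mean FPKM, Prss29 ranked 316th of 22294 genes in primed MSC, 91st in control MSC, 1525th in IUA and 274th in Sham libraries.

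The ratio of Prss29 to Prss28 FPKM stayed within 1.78 to 3.99 over the 12 libraries (median 3.09), while Prss28 itself spanned 106-fold and Prss29 75.4-fold. Of the 36 pairs among the 9 genes, this pair had the smallest mean absolute difference between centred log2 profiles, 0.19. Their longest transcripts were identical at 76.1% of 1074 aligned bases. The longest exact run found in transcripts of both genes was 27 bases, and 0 words of 31 bases were shared. An exact read of 31 or more bases thus cannot match both. How the authors' counting treated reads with mismatches is not given. Of 10 further tryptase-like genes on chromosome 17, 3 met the filter. By limma 0 of these 3 passed in primed MSC against IUA, control MSC against IUA or IUA against Sham, and 0 had an unadjusted p under 0.05. Tpsb2, a mast cell tryptase in this cluster, differed by -0.21 ± 0.76 (primed MSC minus IUA, adjusted p 0.863), -0.98 ± 0.76 (control MSC minus IUA, adjusted p 0.517) and -1.61 ± 0.76 (IUA minus Sham, adjusted p 0.0886).

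Agr2 encodes a disulphide isomerase that helps secretory cells fold mucins. It was at 22.3, 6.90 and 23.7 FPKM in primed MSC libraries, 35.6, 31.8 and 29.3 in control MSC, 5.36, 6.59 and 8.52 in IUA, and 29.9, 18.0 and 22.1 in Sham libraries. The control MSC libraries lay above all primed MSC and IUA libraries and overlapped Sham, and primed MSC replicate 2 sat within the IUA range. The differences were 1.10 ± 0.36 (primed MSC minus IUA), 2.10 ± 0.36 (control MSC minus IUA) and -1.63 ± 0.36 (IUA minus Sham).

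Dmbt1 encodes a scavenger receptor cysteine-rich glycoprotein of mucosal surfaces that binds bacteria. It was at 56.2, 5.33 and 28.8 FPKM in primed MSC libraries, 46.4, 21.9 and 21.8 in control MSC, 2.17, 1.73 and 1.55 in IUA, and 0.400, 0.390 and 0.330 in Sham libraries. All libraries of both MSC groups were above all IUA libraries, and all IUA libraries were above all Sham libraries. The differences were 2.98 ± 0.59 (primed MSC minus IUA), 3.38 ± 0.59 (control MSC minus IUA), 1.03 ± 0.59 (IUA minus Sham), 4.01 ± 0.59 (primed MSC minus Sham) and 4.41 ± 0.59 (control MSC minus Sham). The added 1 shrinks differences that involve Sham, where the gene was under 1 FPKM.

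Wfdc3 encodes a protein with WAP domains, the fold of several secreted protease inhibitors. It was at 2.08, 1.46 and 1.12 FPKM in primed MSC libraries, 11.2, 2.88 and 2.91 in control MSC, 3.26, 6.91 and 6.69 in IUA, and 50.0, 44.0 and 47.6 in Sham libraries. The primed MSC libraries were below those of all other groups, and the Sham libraries were above all others. The differences were -1.34 ± 0.38 (primed MSC minus IUA), -0.16 ± 0.38 (control MSC minus IUA) and -2.92 ± 0.38 (IUA minus Sham).

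Cxcl15 encodes lungkine, a mouse chemokine made by epithelium that attracts neutrophils. It was at 10.4, 8.65 and 10.5 FPKM in primed MSC libraries, 17.6, 3.45 and 3.47 in control MSC, 6.37, 40.2 and 30.1 in IUA, and 56.5, 86.1 and 87.0 in Sham libraries. Sham stood above all other libraries, and the 3 IUA groups overlapped. The differences were -0.96 ± 0.61 (primed MSC minus IUA), -1.56 ± 0.61 (control MSC minus IUA) and -1.85 ± 0.61 (IUA minus Sham).

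Gulo encodes the enzyme of the last step of vitamin C synthesis, which mice have and humans lack. It was at 2.22, 4.22 and 3.89 FPKM in primed MSC libraries, 9.18, 2.13 and 1.58 in control MSC, 2.87, 17.6 and 5.49 in IUA, and 40.8, 102 and 83.3 in Sham libraries. The 3 IUA groups overlapped below Sham. The differences were -0.84 ± 0.59 for primed MSC minus IUA as well as for control MSC minus IUA, and -3.20 ± 0.59 for IUA minus Sham.

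Calb1 encodes calbindin-D28k, a cytosolic calcium buffer of transporting epithelia. It was at 2.95, 0.990 and 0.760 FPKM in primed MSC libraries, 4.79, 0.250 and 1.38 in control MSC, 3.36, 2.64 and 8.27 in IUA, and 23.2, 33.2 and 26.2 in Sham libraries. Sham was again apart from all others. The differences were -1.14 ± 0.50 (primed MSC minus IUA), -1.03 ± 0.50 (control MSC minus IUA) and -2.42 ± 0.50 (IUA minus Sham).

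Lif was at 6.44, 3.40 and 5.07 FPKM in primed MSC libraries, 4.20, 5.01 and 3.24 in control MSC, 4.39, 5.62 and 2.29 in IUA, and 1.97, 2.17 and 2.96 in Sham libraries. Both MSC groups lay above Sham, and IUA overlapped every group. Which cells gave the Lif values was not tested. The differences were 0.25 ± 0.26 (primed MSC minus IUA), 0.06 ± 0.26 (control MSC minus IUA), 0.55 ± 0.26 (IUA minus Sham), 0.80 ± 0.26 (primed MSC minus Sham) and 0.61 ± 0.26 (control MSC minus Sham).

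Foxa2 was at 0.990, 0.170 and 1.75 FPKM in primed MSC libraries, 0.550, 0.690 and 0.250 in control MSC, 0.450, 0.520 and 0.250 in IUA, and 0.390, 0.770 and 1.36 in Sham libraries. All groups overlapped, and only 2 libraries reached 1 FPKM. Its relative Foxa1 was at 0.320 FPKM or less in every library.

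**Figure D2:**
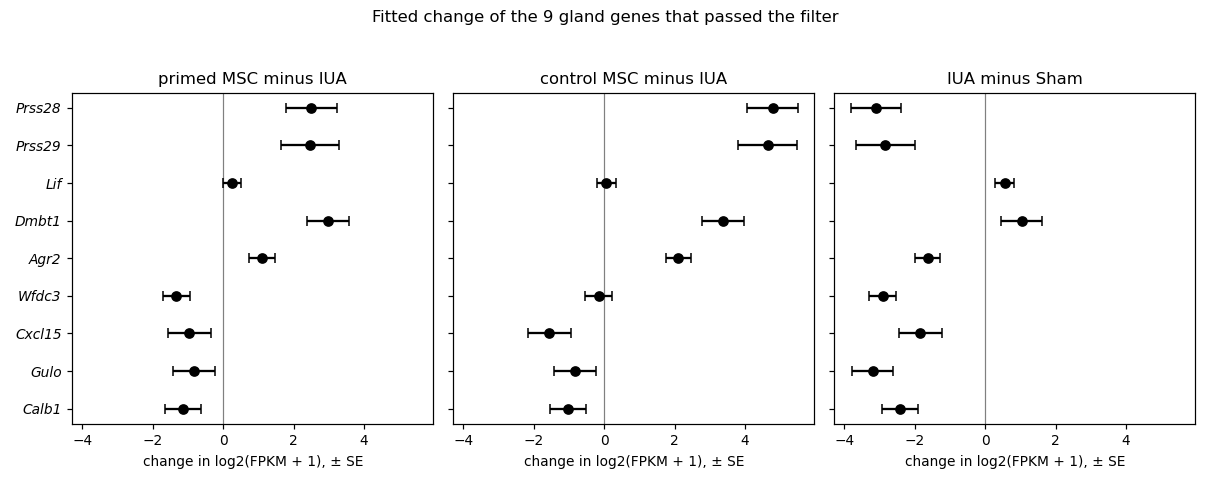
Fitted difference in log2(FPKM + 1) with its SE for the 9 gland genes that met the filter, for primed MSC minus IUA, control MSC minus IUA and IUA minus Sham (3 libraries a group). Prss28, Prss29, Dmbt1 and Agr2 lie right of 0 in both MSC panels, while Gulo, Wfdc3 and Prss28 lie farthest left in IUA minus Sham.

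Counted over the 9 genes, 3 passed as higher and 1 as lower in primed MSC against IUA, where 19.1% of all tested genes passed in either direction, 12.2% as higher and 6.97% as lower. In control MSC against IUA, 4 passed as higher (Prss28, Prss29, Dmbt1 and Agr2) and 0 as lower, where 0.853% of all genes passed, 0.724% as higher and 0.129% as lower. In IUA against Sham, 0 passed as higher and 7 as lower, where 56.2% of all genes passed, 11.1% as higher and 45.0% as lower. The genes were chosen on these same contrasts, so nothing is read from the counts. These comparisons share the IUA libraries. In control MSC against IUA the 4 genes had no overlap between the groups, and 14.8% of all tested genes lay wholly above IUA in this way. That count of 4 changed with the libraries in the fit. It was 0 without control MSC replicate 2 or 3, 1 without control MSC replicate 1 or IUA replicate 2, and 2 without IUA replicate 3. The count over all genes moved as well, from 99 to between 5 and 329 with 1 library left out. The log2 differences themselves stayed within 4.22 to 5.67 for Prss28, 4.10 to 5.60 for Prss29, 3.03 to 3.55 for Dmbt1 and 1.96 to 2.25 for Agr2. In primed MSC against IUA the count of 4 became 1 without IUA replicate 2, primed MSC replicate 1 or primed MSC replicate 3. Over the 12 fits that each left out 1 library, Agr2 did not pass in 11, Wfdc3 in 5, Prss28 in 4 and Dmbt1 in 0.

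Between the MSC groups, Prss28 differed by -2.28 ± 0.71, Prss29 by -2.17 ± 0.83, Wfdc3 by -1.18 ± 0.38 and Agr2 by -1.0 ± 0.36 (primed minus control MSC). For these 4 genes every primed MSC library was below every control MSC library, as for 12.9% of all tested genes. The other 5 differed by between -0.40 ± 0.59 (Dmbt1) and 0.59 ± 0.61 (Cxcl15), with overlapping groups. By limma 0 of the 9 passed, beside 0.112% of all genes (0.0776% as higher and 0.0345% as lower). An unadjusted p under 0.05 was found for 4 of the 9, a share that was not counted over all genes. As the 9 were chosen from these same levels, nothing is read from either count.

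Against Sham, 2 of the 9 passed as higher (Dmbt1 and Lif) and 4 as lower in primed MSC, where 59.5% of all genes passed, 14.5% as higher and 45.0% as lower. In control MSC 1 passed as higher (Dmbt1) and 4 as lower, where 56.8% of all genes passed, 14.1% as higher and 42.7% as lower. The 4 lower ones were in each case Wfdc3, Cxcl15, Gulo and Calb1. Their differences from Sham were -4.25 ± 0.38, -2.81 ± 0.61, -4.04 ± 0.59 and -3.56 ± 0.50 in primed MSC and -3.08 ± 0.38, -3.41 ± 0.61, -4.04 ± 0.59 and -3.45 ± 0.50 in control MSC. Prss28, Prss29 and Agr2 differed from Sham by -0.60 ± 0.71, -0.37 ± 0.83 and -0.53 ± 0.36 in primed MSC, and by 1.68 ± 0.71, 1.80 ± 0.83 and 0.47 ± 0.36 in control MSC. The primed MSC differences had no stable sign: without primed MSC replicate 2 they were 0.034, 0.40 and 0.0067, and with the mean of epithelial genes as a covariate 0.39, 0.82 and 0.14. The control MSC count of 5 became 8 under median-ratio scaling, with array weights, in the fit to the compared groups alone or without IUA replicate 3. Lif no longer passed in primed MSC without Sham replicate 1, Sham replicate 2, primed MSC replicate 1 or primed MSC replicate 3. The median of all genes differed by -0.35 in IUA against Sham, and by -0.01 when libraries were scaled by median ratios, which changed the share of higher genes among those that passed to 50.8% from 19.8%.

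General epithelial genes differed between the groups as well. All 20 fell in IUA against Sham (median -1.80, beside -0.35 for all genes), with the smallest p for the transcription factor Pax8 (-2.13 ± 0.33, adjusted p 3.59e-04) and the protease inhibitor Spint1 (-2.13 ± 0.35, adjusted p 4.95e-04). All 8 endothelial genes fell too (median -1.33), as did 5 of 8 smooth muscle genes (median -0.96), where 45.0% of all genes passed as lower. Mast cell genes, with 3 of 7 lower, were near that share. Stromal genes, with 3 of 9 lower and 1 higher, and mesothelial genes, with 1 of 4 lower (median -0.24), were under it. By contrast, 11 of 12 macrophage genes (median 0.94) and 5 of 7 neutrophil genes (median 2.39) rose, where 11.1% of all genes passed as higher. Under median-ratio scaling 19 of 20 epithelial, 7 of 8 endothelial and 1 of 8 smooth muscle genes fell. Of the 20 epithelial genes, by limma 0 passed in primed MSC against IUA (median -0.16) or in control MSC against IUA (median -0.34), and none had an unadjusted p under 0.05. Krt8 and Krt18, keratins of simple epithelia, held 0.206 to 0.317% of summed FPKM in primed MSC, 0.203 to 0.518% in control MSC, 0.213 to 0.744% in IUA and 1.20 to 2.13% in Sham libraries. The ratio of Prss28 plus Prss29 to Krt8 plus Krt18 was 0.0715 to 0.371 in primed MSC, 0.487 to 0.892 in control MSC, 0.00412 to 0.0522 in IUA and 0.0173 to 0.0522 in Sham libraries. IUA and Sham thus overlapped on this ratio, and both MSC groups lay above them.

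**Figure D3:**
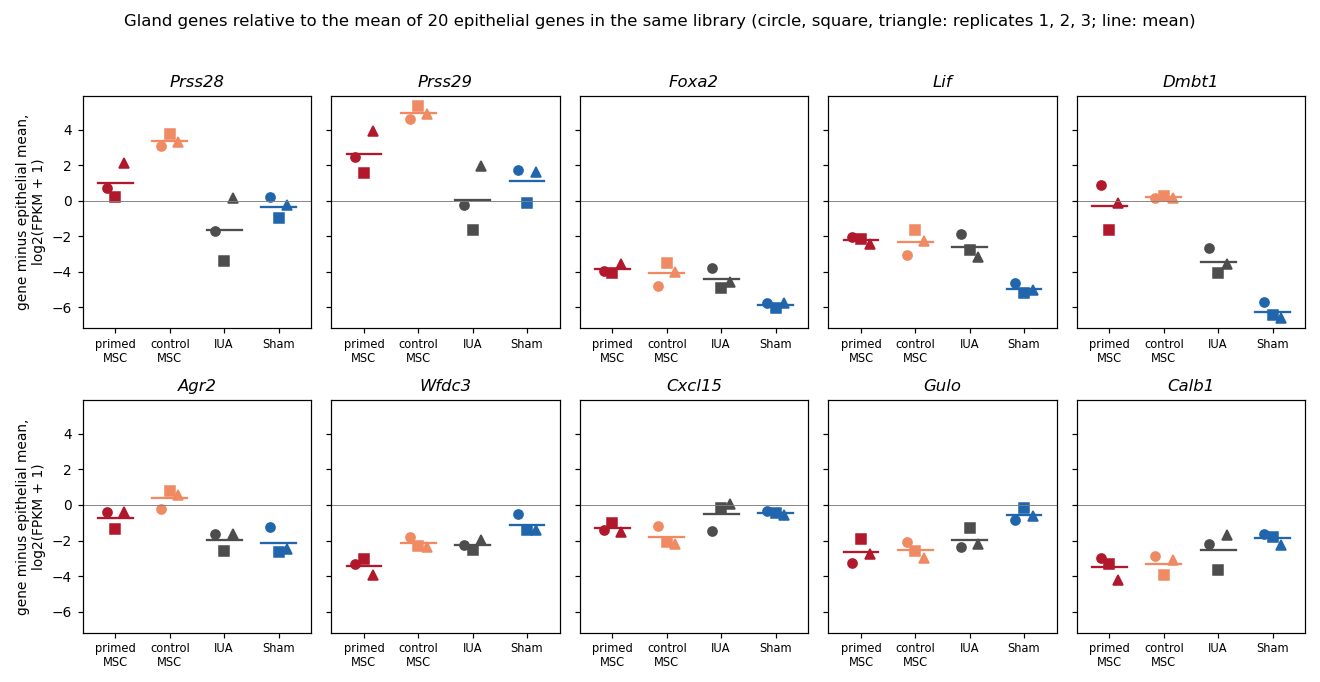
Level of each gland gene minus the mean of 20 epithelial genes in the same library, in log2(FPKM + 1), for groups from left to right primed MSC, control MSC, IUA and Sham; symbols mark replicates and lines the mean of 3. Prss28, Prss29, Dmbt1 and Agr2 stand highest in control MSC or primed MSC, and Agr2 in IUA overlaps Sham.

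Set against the epithelial mean of the same library, Prss28 stood at 0.18 to 2.14 in primed MSC, 3.09 to 3.76 in control MSC, -3.37 to 0.13 in IUA and -0.96 to 0.19 in Sham libraries (log2 units). Agr2 stood at -1.33 to -0.40 in primed MSC, -0.21 to 0.79 in control MSC, -2.58 to -1.65 in IUA and -2.63 to -1.26 in Sham libraries, so that IUA and Sham overlapped. Cxcl15 also overlapped between IUA (-1.44 to 0.06) and Sham (-0.54 to -0.36). Gulo did not, at -2.37 to -1.29 in IUA and -0.82 to -0.19 in Sham, and neither did Wfdc3, at -2.53 to -1.95 in IUA and -1.39 to -0.53 in Sham. Dmbt1 stood at -1.65 to 0.90 in primed MSC, 0.16 to 0.27 in control MSC, -4.06 to -2.65 in IUA and -6.59 to -5.72 in Sham libraries.

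With the epithelial mean as a covariate in the fit, the differences of control MSC minus IUA were 4.91 ± 0.72 for Prss28, 4.79 ± 0.84 for Prss29, 3.58 ± 0.54 for Dmbt1 and 2.19 ± 0.35 for Agr2, against 4.78, 4.64, 3.38 and 2.10 without it. The same covariate took the number of the 9 genes that passed in IUA against Sham to 0 from 7 and that of all 11604 genes to 389 from 6517, so calls were lost over the whole table as well. It took Cxcl15 to 0.91 ± 0.53 from -1.85 ± 0.61. Each Sham library had a higher epithelial mean than each other library, so the covariate and the Sham group cannot be told apart.

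Of 18 other gland genes, 16 met the filter. In IUA against Sham 2 rose and 13 fell (median -1.66), where 11.1% of all tested genes passed as higher and 45.0% as lower. Under median-ratio scaling 2 rose and 9 fell. Slpi, a secreted inhibitor of neutrophil elastase, rose by 3.90 ± 0.27 (adjusted p 2.24e-06), and which cells gave its values was not tested. Spink1, a trypsin inhibitor, fell to 21.2, 49.8 and 58.7 FPKM in IUA, against 317, 185 and 274 in Sham libraries (-2.64 ± 0.39, adjusted p 2.67e-04). The stem cell receptor Lgr5 (-1.48 ± 0.23, adjusted p 3.88e-04) and the gland transcription factor Sox17 (-2.03 ± 0.32, adjusted p 4.14e-04) fell too. By limma 0 of 16 passed in primed MSC against IUA (6 at an unadjusted p under 0.05), in control MSC against IUA (4 at an unadjusted p under 0.05) or in primed against control MSC (2). The shares at an unadjusted p under 0.05 were not counted over all genes, so nothing is read from the counts in brackets.

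The other gland gene nearest to passing in both MSC groups was Aqp5, a water channel of secretory epithelium. It was at 3.10, 1.75 and 9.74 FPKM in primed MSC libraries, 7.85, 6.07 and 7.14 in control MSC, 0.640, 0.460 and 1.40 in IUA, and 16.3, 3.57 and 15.7 in Sham libraries. Both MSC groups lay wholly above IUA. The differences were 1.47 ± 0.52 (primed MSC minus IUA, adjusted p 0.0679), 2.16 ± 0.52 (control MSC minus IUA, adjusted p 0.0672) and -2.61 ± 0.52 (IUA minus Sham, adjusted p 0.00142). Pigr, the receptor that carries IgA into secretions, differed by 1.16 ± 0.45 (primed MSC minus IUA, adjusted p 0.0915) and 1.17 ± 0.45 (control MSC minus IUA, adjusted p 0.202).

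**Figure D4:**
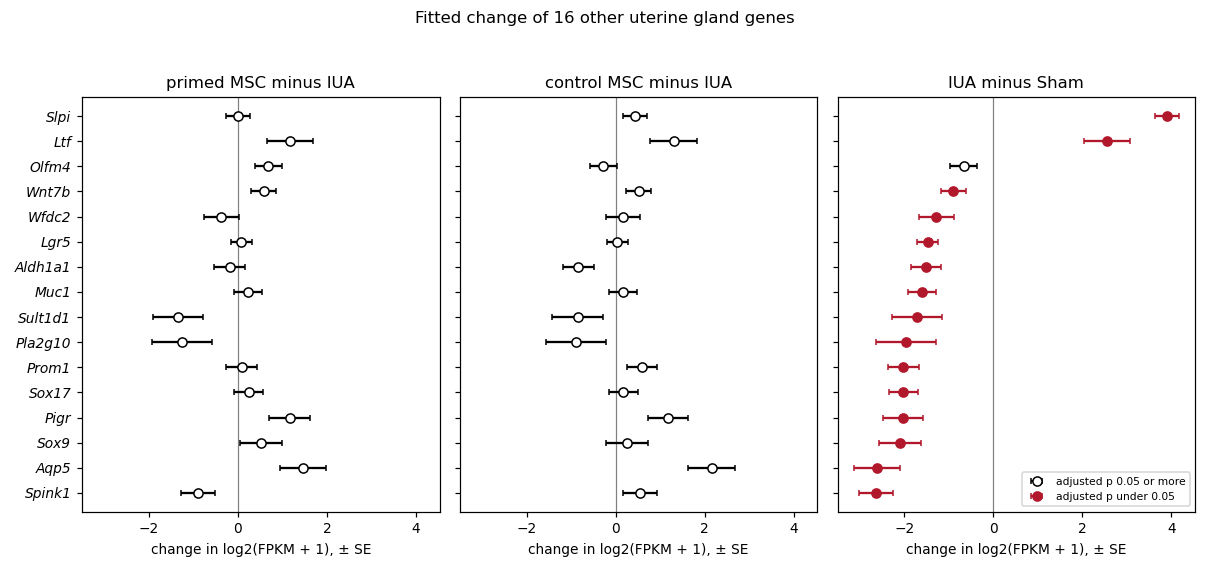
Fitted difference in log2(FPKM + 1) with its SE for the 16 other gland genes that met the filter, in primed MSC minus IUA, control MSC minus IUA and IUA minus Sham; filled red points had an adjusted p under 0.05. In IUA minus Sham 15 of 16 are filled, with Slpi and Ltf on the right, and in the MSC panels 0 are filled.

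Genes around single members were counted from lists. The counts, from LIF signalling to calcium handling, stand beside these shares of all tested genes. In IUA against Sham 11.1% passed as higher and 45.0% as lower. In primed MSC against IUA the shares were 12.2% and 6.97%, and in control MSC against IUA 0.724% and 0.129%. Shares at an unadjusted p under 0.05 were not counted over all genes, so nothing is read from such counts. Of 12 tested genes of LIF signalling, 3 rose and 1 fell in primed MSC against IUA: the related cytokine Osm (0.86 ± 0.17, adjusted p 0.00631), the signal carrier Stat3 (0.66 ± 0.14, adjusted p 0.00726) and the feedback inhibitor Socs3 (1.39 ± 0.35, adjusted p 0.0175) rose, and Il6 fell (-0.97 ± 0.27, adjusted p 0.0291). In control MSC against IUA 0 of the 12 passed by limma, with 3 at an unadjusted p under 0.05. In IUA against Sham 2 rose and 7 fell, among them the shared receptor chain Il6st (-1.75 ± 0.20, adjusted p 8.39e-05) and Stat3 (-1.12 ± 0.14, adjusted p 1.07e-04), and under median-ratio scaling 4 rose and 3 fell. Lifr, the LIF receptor, differed by -0.02 ± 0.12 in IUA against Sham (adjusted p 0.901).

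Of 4 tested gland transcription factors 3 fell in IUA against Sham, namely Pax8, Sox17 and Sox9 (-2.10 ± 0.47, adjusted p 0.00265), and 0 passed in either MSC group against IUA by limma, with 0 at an unadjusted p under 0.05. Of 10 tested genes listed as protease inhibitors of epithelium 3 rose and 6 fell in IUA against Sham. Slpi and Wfdc17 (1.66 ± 0.17) were among those that rose, as most macrophage and neutrophil genes did. In primed MSC against IUA 1, Wfdc17, fell (-0.93 ± 0.17, adjusted p 0.00411). The part of macrophages and neutrophils in the Slpi and Wfdc17 values was not tested. Of 6 tested genes of mucin secretion 4 fell in IUA against Sham, with the smallest p for the secretory stress factor Xbp1 (-0.89 ± 0.10, adjusted p 6.33e-05), and 0 passed with either kind of cells by limma (0 at an unadjusted p under 0.05 in control MSC and 1 in primed MSC).

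Of 7 tested chemokines and receptors of the ELR type, to which Cxcl15 belongs, 4 rose in IUA against Sham, namely Cxcl3 (2.15 ± 0.17, adjusted p 6.85e-06), Cxcl1 (1.86 ± 0.26, adjusted p 2.22e-04), Cxcl2 (1.35 ± 0.21, adjusted p 3.16e-04) and Cxcl5 (1.87 ± 0.47, adjusted p 0.00524). In primed MSC and control MSC against IUA 0 passed by limma, with 1 and 2 at an unadjusted p under 0.05. The 7 include Pf4, a CXC chemokine that is not of the ELR type and was 1 of the 2 in control MSC. Of 6 tested genes of vitamin C synthesis and transport, 1 rose and 4 fell in IUA against Sham, and 2 rose and 2 fell under median-ratio scaling. The precursor enzymes Ugp2 (-1.12 ± 0.15, adjusted p 1.64e-04) and Ugdh (-0.56 ± 0.13, adjusted p 0.00431) were among those that fell. In primed MSC against IUA Ugdh fell (-0.65 ± 0.13, adjusted p 0.00776) and the ascorbate transporter Slc23a2 rose (0.62 ± 0.15, adjusted p 0.0138). Of 5 tested calcium-handling genes, only the pump Atp2b1 passed in IUA against Sham (0.39 ± 0.11, adjusted p 0.0105), and S100g, the other vitamin D-dependent calbindin, differed by -1.13 ± 0.56 (adjusted p 0.103).

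Single libraries stood out within groups. Primed MSC replicate 2 was the lowest of its group for 6 of the 9 genes, 15 of 16 other gland genes and 19 of 20 epithelial genes, beside 36.7% of all tested genes. Control MSC replicate 1 was the highest of its group for 8 of the 9 genes, 15 of 16 other gland genes and all 20 epithelial genes, beside 45.2% of all tested genes. IUA replicate 2 was the highest of its group for 19 of 20 epithelial genes and held the highest IUA values of Cxcl15 and Gulo, whereas the highest IUA values of Prss28, Prss29, Agr2 and Calb1 were in replicate 3. The part of these library differences in the values above was not tested.

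The genes whose centred log2 profiles lay closest to each member over the 12 libraries were found among all tested genes outside the group. For Prss28 they were Aqp5 (mean absolute difference 0.96), Reg3g (0.99) and Tmprss4 (1.01), and for Prss29 Sectm1b (0.95), Aqp8 (0.97) and Aqp5 (1.01). For Agr2 they were Tmprss4 (0.33), Reg3g (0.34) and Slc5a8 (0.34). For Dmbt1 they were Lcn2 (0.64), Mmp9 (0.69) and Slc13a3 (0.72), of which Lcn2 averaged 61.0 FPKM in primed MSC, 59.9 in control MSC, 19.3 in IUA and 3.36 in Sham libraries. Lcn2 is also a gene of neutrophil granules, and the summed level of 10 neutrophil genes was 71.6 to 183 FPKM in primed MSC, 86.5 to 170.1 in control MSC, 46.5 to 185 in IUA and 13.2 to 32.7 in Sham libraries. The part of neutrophils in the Dmbt1 and Lcn2 values was not tested. For Lif they were Nfkbiz (0.15), Mocs1 (0.15) and Acsl1 (0.17).

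For Cxcl15 the closest profiles were those of Gstm6 (0.21), Sbspon (0.22) and Rdh16f1 (0.25), for Gulo Il17rb (0.32), Sbspon (0.35) and Cyp3a59 (0.36), for Calb1 Gkn3 (0.32), Il17rb (0.50) and Ppargc1a (0.50), and for Wfdc3 Tmed6 (0.45), Krt23 (0.45) and Syn2 (0.46). Among the members themselves Cxcl15 and Gulo (0.49) and Wfdc3 and Calb1 (0.51) came next after the protease pair, and Dmbt1 and Gulo were farthest apart (3.10).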

How the data were processed

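The deposited table gives 1 FPKM value per gene and library, made by the authors and rounded to 2 decimals per the file's values. Tools listed in the submitters' processing notes are HISAT2, fastp, RSEM, StringTie and DESeq2, with the build mm10 and no roles or versions. Sums of FPKM per library ran from 505460 to 563751. They are not a depth, which is unknown, so no count test or counting interval was used. No pair of the 12 libraries held identical values. For 27 genes whose symbol had turned into a date the symbol was restored, none of them described here.

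Values were put on the log2(FPKM + 1) scale. After genes under 1 FPKM in all but 2 or fewer libraries were dropped, limma 3.58.1 (R 4.3.3) fitted 1 mean per group to all 12 libraries, with a variance trend. The 6 comparisons were tested two-sided with Benjamini-Hochberg adjustment. With 3 libraries a side, the smallest two-sided p of an exact permutation test is 0.1. The fit was tested on simulated data.

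The 10 genes and the 21 further gene lists were chosen with earlier results of these data known. For each list described, the text names up to 4 genes of smallest p, plus Adgre1, Krt8, Krt18 and, after their values were seen, Lifr, S100g and Ltf. Similar profiles were the 3 tested genes outside the group, with no predicted, clone or immune receptor symbol, of smallest mean absolute difference between centred log2 profiles. Positions are from GENCODE M21 on mm10, and the promoter sequences are from RefSeq on GRCm38.p6. Alternatives covered pseudocounts, filters, scalings, array weights, a replicate block, an epithelial covariate, a fit to the compared groups alone and leaving out each library.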

Additional observations from a re-analysis of the deposited data

How the results depend on the processing

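Over 1242 alternative values of the 9 genes' differences, 1106 kept their direction and side of the threshold, 71 kept their direction but no longer passed, 34 came to pass and 31 changed sign. The changes of sign without a left-out library were Gulo in primed against control MSC (0.00 in the fit used; 0.064 with TPM, 0.24 with array weights, 0.038 with median-ratio scaling, 0.067 and 0.030 with pseudocounts of 0.1 and 0.5, 0.0013 with quantile normalization), Calb1 in the same comparison (0.11 with array weights, 0.058 with a pseudocount of 0.1), Lif in control MSC against IUA (-0.10 with array weights) and Prss29 in primed MSC against Sham (0.054 with median-ratio scaling). With the epithelial covariate they were Cxcl15 in IUA against Sham (0.91), Wfdc3 in control MSC against IUA (0.030) and, in primed MSC against Sham, Prss28 (0.39), Prss29 (0.82), Agr2 (0.14) and Cxcl15 (0.17).

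Leaving out 1 library in turn, the differences that changed sign ran, in primed against control MSC, from -0.63 to 0.48 for Calb1, -0.38 to 0.61 for Gulo and -1.08 to 0.50 for Dmbt1. In primed MSC against Sham they ran from -0.82 to 0.0067 for Agr2, -1.30 to 0.034 for Prss28 and -1.13 to 0.40 for Prss29. For Lif they ran from -0.034 to 0.47 in primed MSC against IUA and from -0.23 to 0.28 in control MSC against IUA, and for Wfdc3 from -0.71 to 0.12 in control MSC against IUA.

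The number of the 9 genes that passed was 4 in control MSC against IUA, and 0 with no filter, 2 in the fit to the compared groups alone and 0 to 5 with 1 library left out. In primed MSC against IUA it was 4, and 1 with no filter, 2 in the compared groups alone and 1 to 4 with 1 library left out. In control MSC against Sham it was 5, and 8 with median-ratio scaling, array weights or the compared groups alone, and 5 to 8 with 1 library left out. With the epithelial covariate it was 0 in IUA against Sham, 1 in control MSC against Sham and 2 in primed MSC against Sham, while over all genes it was 389, 535 and 1192 with the covariate, against 6517, 6592 and 6903 without it. Of the 16 other gland genes, 0 passed in primed MSC against IUA, and 1 did with a pseudocount of 0.1 or TPM, 4 with the covariate and 0 to 3 with 1 library left out. In control MSC against IUA 0 passed, and 1 did with the covariate, the compared groups alone or 1 library left out (0 to 1), and in primed against control MSC 1 did with array weights. The covariate left 2 of 15 in IUA against Sham, 2 of 13 in control MSC against Sham and 3 of 12 in primed MSC against Sham. Of 20 epithelial genes 0 to 1 passed in primed MSC against IUA with 1 library left out. Over all tested genes 99 passed in control MSC against IUA, and 16 to 172 under other settings and 5 to 329 with 1 library left out.

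Replicate numbers do not pair the libraries: deviations of same-numbered libraries correlated at -0.29 to 0.29, above 0.1 in 3 of 18 pairs. A replicate block let 1 other gland gene pass in primed MSC and 1 in control MSC against IUA. No Foxa2 difference was fitted unless the filter was dropped. Values under 1 FPKM, as for Dmbt1 in Sham, may rest on few fragments, and their precision is unknown because the depth is.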

Other observations

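Steroid-regulated uterine genes were counted beside the gland genes. Of 8 tested oestrogen-induced genes, 5 rose and 2 fell in IUA against Sham, where 11.1% of all tested genes passed as higher and 45.0% as lower. Those that rose included C3 (1.26 ± 0.22, adjusted p 6.63e-04) and Ltf, the lactoferrin gene of the glands and of neutrophil granules (2.56 ± 0.52, adjusted p 0.00154), and those that fell were Pgr (-1.31 ± 0.18, adjusted p 1.90e-04) and Muc1 (-1.61 ± 0.31, adjusted p 0.00124). Of 7 tested neutrophil genes 5 rose in the same comparison (median 2.39), among them Mmp8 (2.39 ± 0.34, adjusted p 2.44e-04), Camp (2.00 ± 0.30, adjusted p 2.91e-04) and S100a8 (3.41 ± 0.51, adjusted p 2.97e-04), and their part in the Ltf value was not tested. In primed MSC against IUA 0 of the 7 rose and 2 fell, beside 12.2% and 6.97% of all tested genes. In control MSC against IUA 0 rose and 1 fell, beside 0.724% and 0.129%. Lcn2, which had the profile closest to Dmbt1, passed in primed MSC against IUA (1.51 ± 0.48, adjusted p 0.0447) and differed by 1.70 ± 0.48 in control MSC against IUA (adjusted p 0.102). Of 9 tested progesterone-induced genes, 1 rose and 4 fell in IUA against Sham, near the shares of all tested genes (11.1% higher and 45.0% lower). The smallest p was that of Gata2 (-2.26 ± 0.30, adjusted p 1.58e-04). By limma 0 passed in primed MSC or control MSC against IUA. An unadjusted p under 0.05 was found for 1 and 2, shares that were not counted over all genes. The oestrogen receptor gene Esr1 fell in IUA against Sham (-1.79 ± 0.30, adjusted p 4.93e-04).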
